A study of Mus musculus with 6 samples.

Results

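Chemokine ligands are small secreted proteins that direct the movement of cells, and 38 of the 22186 genes in the deposited table had a symbol of this family. Membership was set by symbol alone (Ccl, Cxcl, Cx3cl or Xcl, a number and at most 1 further letter), without a cut on measured values. The family was nevertheless chosen with earlier results of these data known. They comprised 24 CC, 12 CXC, 1 CX3C and 1 XC ligand. Transcripts were measured in primary adipose-derived stromal cells (ADSCs), fibroblast-like cells of fat, of WT genotype in all 6 libraries. The control group, labelled Ctrl, had 3 libraries, and the Treg co-culture group had 3, taken after 48 hours with regulatory T cells (Treg), the T cells that damp immune responses. Whether the cells shared medium or contact is not stated. No group was cultured with any other cell type, so effects of Treg and of added cells in general cannot be told apart. Whether the 3 replicates stem from different animals or cultures is not in the labels. Each p-value thus sets the group difference only against the scatter among these libraries, and that scatter may be technical.

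Chemokines bind receptors with 7 membrane-spanning helices on leukocytes and stromal cells, and the pattern of their first cysteines (CC, CXC, CX3C or XC) gives each subfamily its name. Inflammatory members are switched on by NF-kB or interferon signalling and recruit monocytes, neutrophils, eosinophils or T cells. Homeostatic members are made without inflammation: CXCL12 from stromal cells holds haematopoietic cells in their niche and guides progenitor cells through the receptor CXCR4. Mesenchymal stromal cells are known as a source of both kinds.

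Co-culture libraries held less transcript of the dominant ligand Cxcl12 and more of the next 3, Ccl7, Cxcl14 and Ccl2. Mean Cxcl12 was 951 ± 21.5 TPM in controls against 585 ± 14.8 TPM with Treg, and mean Cxcl14 was 48.5 ± 1.66 against 88.0 ± 5.77 TPM (± SD, n = 3 each). TPM is a length-corrected share of all transcripts in a library, scaled to the same total in each, so levels of different genes can be set side by side, but a library's sequencing depth is not kept. Of the 38 members, 16 had a mean of at least 1 TPM over the 6 libraries and were tested with limma on log2(TPM + 1), together with all 12405 genes above that filter. At a Benjamini-Hochberg adjusted p of 0.05, 3 of the 16 rose (Cxcl14, Ccl2, Ccl7), against 19.8% of all genes tested, and 4 fell (Ccl8, Cxcl12, Cxcl1, Cxcl16), against 18.0%. Both shares lie near the background. The median log2 fold change of the 16 was -0.27, that of all genes tested 0.00, and none of the 16 reached 2-fold on this scale. That median was not stable. It was -0.03 once Treg co-culture 1 had been dropped and -0.38 once Treg co-culture 2 had been. A filter of 5 TPM left 10 members, whose median was 0.03. No shift of the family as a whole is therefore read from it.

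The 16 tested members spanned means over the 6 libraries from 1.13 TPM (Ccl28) to 768 TPM (Cxcl12). Of the 6 with a mean of at least 10 TPM, 5 were called, and of the 10 below it 2 were. The share of all genes called above and below 10 TPM was not computed. With a filter of 5 TPM, 21.9% of all genes tested were called higher and 19.7% lower. Replicate spread reached higher values among the low members. The SD was 2.26% to 9.81% of the control mean for the former and 1.32% to 35.2% for the latter, and reached 68.5% of the co-culture mean among the low members. Co-culture values lay wholly above the control values for 3 tested members (25.3% of all genes tested) and wholly below for 5 (24.0%).

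**Figure D1:**
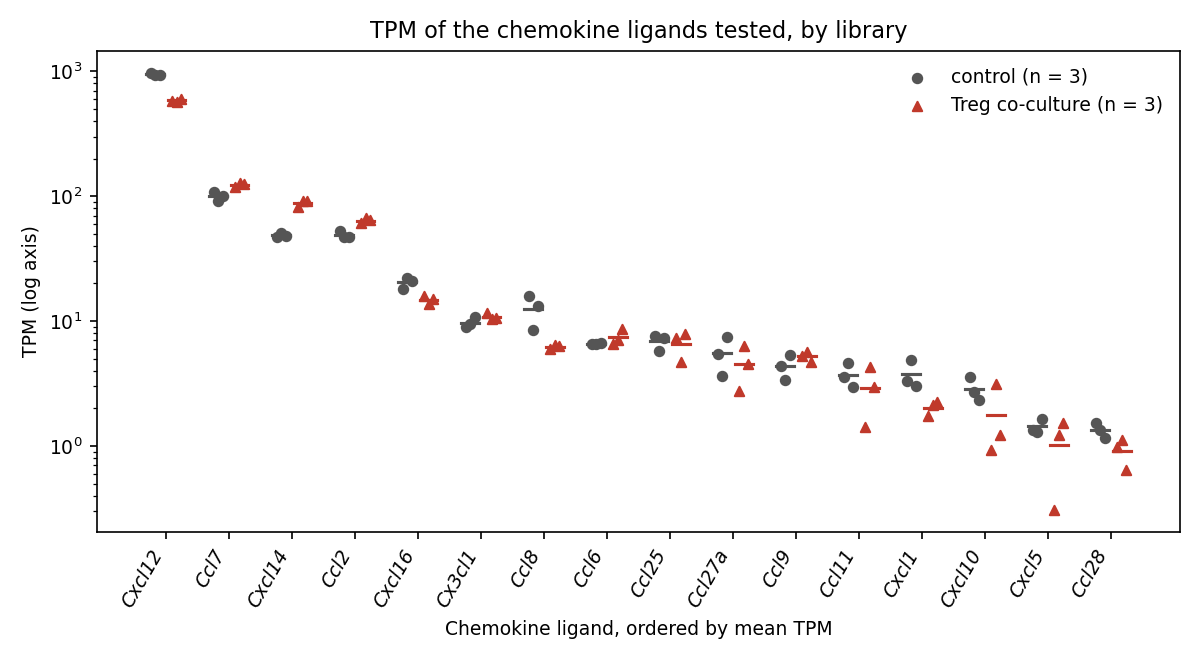
TPM (log axis) of the 16 chemokine ligands tested, ordered by mean, with 1 point per library (circles control, triangles Treg co-culture) and a line at each group mean. Cxcl12 lies apart at the top, with 573 to 602 TPM after co-culture against 937 to 976 TPM in controls, and the scatter widens towards the low members.

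Libraries of a group resembled each other (Pearson r across genes of 0.994 to 0.995 on the log2 scale; genes are not independent replicates), and 6566 to 7073 genes were listed at 0 per library. Treg co-culture 1 stood apart in heart and liver transcripts (5 genes): their sum was 91.8 TPM there, against 0.475 and 0.318 TPM in Treg co-culture 2 and 3 and 0.213 to 1.10 TPM in controls. All 7 calls were also made without that library. Of 10 ADSC markers all were tested, 7 of them lower and 2 higher, against 18.0% and 19.8% of all genes tested. Their sum was 8939 to 9453 TPM in controls and 7809 to 8171 TPM with Treg. Muscle markers (6 of 6 higher, against 19.8% of all genes tested) summed to 836 to 889 TPM in controls, which thus already held them. After co-culture the muscle markers summed to 2303 to 2368 TPM. Of 12 T cell markers 7 were at 0 in every library, among them Cd3d, Cd3e, Cd3g, Cd4, Il2ra and Ctla4, and the list summed to 3.59 to 3.81 TPM in controls and 3.63 to 4.17 TPM with Treg. Endothelial markers summed to 38.5 to 41.1 and 34.8 to 36.1 TPM, and mesothelial markers to 611 to 619 and 566 to 583 TPM.

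Cxcl12 and Cxcl14, homeostatic ligands of the CXC class, changed in opposite directions. Their promoters are shown because they are the members with the lowest adjusted p in each direction. The sequences are RefSeq's on GRCm38.p6, from 250 bases before to 50 after the transcript start, 5′ to 3′ on the gene's strand, at chr6:117168285-117168584 (plus strand) for Cxcl12 and chr13:56296502-56296801 (minus strand) for Cxcl14.
Cxcl12: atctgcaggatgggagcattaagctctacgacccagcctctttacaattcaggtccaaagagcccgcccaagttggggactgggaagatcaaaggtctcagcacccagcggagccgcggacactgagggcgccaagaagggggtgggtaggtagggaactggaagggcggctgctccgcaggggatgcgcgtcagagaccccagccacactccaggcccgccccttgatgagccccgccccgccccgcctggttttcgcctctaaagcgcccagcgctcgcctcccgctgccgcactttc
Cxcl14: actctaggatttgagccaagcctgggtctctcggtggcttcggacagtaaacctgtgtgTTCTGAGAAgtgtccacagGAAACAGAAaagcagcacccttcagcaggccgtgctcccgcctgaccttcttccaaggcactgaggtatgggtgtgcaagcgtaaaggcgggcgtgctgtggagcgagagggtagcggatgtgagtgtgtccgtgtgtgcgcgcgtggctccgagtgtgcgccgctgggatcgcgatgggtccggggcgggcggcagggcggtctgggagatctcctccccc
Capitals mark matches, on either strand, to any of 5 motifs searched: the TATA box TATAAA, the AP-1 motif TGANTCA, the IRF-type motif GAAANNGAA, the STAT-type motif TTCNNNGAA and the NF-kB consensus. The Cxcl12 window held none of them. In Cxcl14 a STAT-type match began 191 bases and an IRF-type match 172 bases before the start, without overlap. Among the 32851 promoters of the RefSeq table, 13.6% held the TATA box, 7.81% the AP-1, 8.56% the IRF-type, 8.30% the STAT-type and 5.80% the NF-kB motif. A match describes these letters and is not evidence of a bound site.

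Cxcl12, the stromal retention signal, was at 976, 937 and 941 TPM in controls 1 to 3 and 580.4, 573 and 602 TPM in Treg co-culture 1 to 3. Every co-culture library lay below every control, with a gap far wider than the spread in either group. The ratio of means was 1.63-fold in favour of controls, for a log2 fold change of -0.70 (SE 0.03, limma adjusted p = 2.34e-08). Within the 3 batches that the labels give, the log2 differences were -0.75, -0.71 and -0.64. By level Cxcl12 ranked 148th among all 22186 genes in controls and 231st after co-culture, and 241 of 12405 tested genes had a lower log2 fold change. In bulk RNA, fewer cells of a type and less RNA per cell cannot be told apart. ADSC markers moved in both directions. The proteoglycan decorin, Dcn, went from 1018 ± 33.5 to 576 ± 8.35 TPM and the collagen gene Col1a1 from 6705 ± 317 to 5939 ± 171 TPM, whereas the surface protein gene Cd44, named after its values were seen, went from 119.9 ± 4.02 to 180.1 ± 2.09 TPM. Divided by each of the 10 ADSC markers in turn, Cxcl12 was lower in every co-culture library than in every control for 9 markers. Per unit of Cd44 it was 7.84 to 8.03 in controls and 3.19 to 3.30 after co-culture, and per unit of Col1a1 0.136 to 0.154 and 0.0939 to 0.101. Dcn was the exception, with ratios of 0.907 to 0.960 in controls and 0.993 to 1.06 after co-culture. The part of these markers in the result was not tested.

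Cxcl14, a chemokine of epithelial and stromal cells, was at 47.4, 50.4 and 47.7 TPM in controls and 81.3, 91.8 and 90.7 TPM with Treg. The groups did not overlap, and Treg co-culture 1 was the lowest of its group. Its mean was 1.81 times as high after co-culture (log2 fold change 0.84, SE 0.05, limma adjusted p = 1.19e-06), with 194 of 12405 tested genes above it in log2 fold change. The ratio of Cxcl12 to Cxcl14 was 18.6 to 20.6 in controls and 6.24 to 7.13 after co-culture. The other 3 homeostatic members tested were not called. Ccl25, known for drawing T cell precursors to the thymus and gut, was at 7.64, 5.74 and 7.37 TPM in controls against 7.27, 4.68 and 7.86 TPM with Treg, library 2 being the lowest of each group (log2 fold change -0.08, adjusted p = 0.757). Ccl27a, a skin T cell attractant, ranged from 3.64 to 7.51 TPM in controls and from 2.74 to 6.35 TPM after co-culture, so the groups overlapped widely (-0.24, adjusted p = 0.495). Of 19 alternative fits it passed in 1, with batch as a block and without batch 2 (-0.69, adjusted p = 0.0105), and the adjusted p ran up to 0.969. Ccl28, a mucosal chemokine, was 1.15 to 1.54 TPM in controls and 0.644 to 1.12 TPM with Treg, without overlap but short of the threshold (-0.30, SE 0.17, adjusted p = 0.208).

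Cxcl12 dominated the summed ligand level. All 38 members summed to 1232 ± 33.6 TPM in controls and 930 ± 23.0 TPM with Treg. Without Cxcl12 the sum ran the other way, from 281 ± 13.5 to 345 ± 15.4 TPM. Cxcl12 made up 76.9% to 77.8% of the sum in controls and 61.7% to 63.9% after co-culture. Ccl7 went from 8.07% ± 0.510 to 13.3% ± 0.323 of the sum and Cxcl14 from 3.94% ± 0.230 to 9.45% ± 0.465. The 4 most abundant members together held 92.5% to 93.5% in every library. These sums are descriptions and were not tested.

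**Figure D2:**
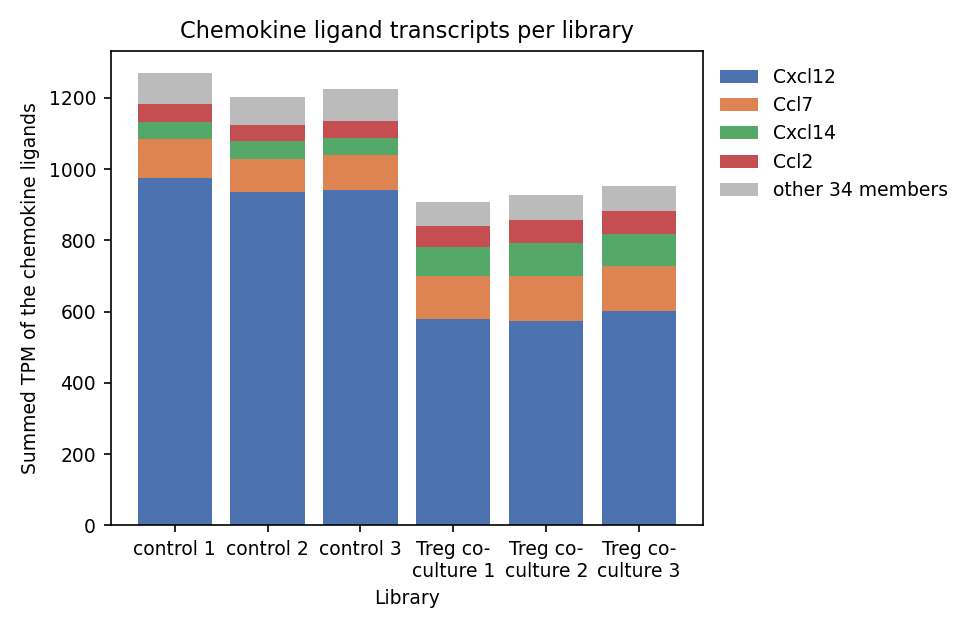
Stacked bars of summed TPM for the 38 chemokine ligands, 1 bar per library, with the 4 most abundant members in colour and the other 34 in grey. The controls reach a mean of 1232 TPM and the co-culture libraries 930 TPM, while the part above Cxcl12 is taller after co-culture.

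The CC ligands grouped here as acting mainly on monocytes split. Ccl2 and Ccl7, which draw monocytes through CCR2, rose, whereas Ccl8, placed in the same group, fell. The Ccl8 promoter is shown as that of the 1 member of this group called lower. It lies at chr11:82114935-82115234 (RefSeq, GRCm38.p6, plus strand), and the capitals mark its 1 match, a TATA box starting 32 bases before the transcript start.
Ccl8: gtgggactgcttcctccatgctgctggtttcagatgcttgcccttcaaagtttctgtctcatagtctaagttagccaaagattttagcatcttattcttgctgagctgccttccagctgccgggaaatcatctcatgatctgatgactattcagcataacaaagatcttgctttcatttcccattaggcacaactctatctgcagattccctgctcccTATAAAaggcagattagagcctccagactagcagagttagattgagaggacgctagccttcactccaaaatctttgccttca
No promoter was printed for Ccl2, Ccl7, Ccl11, Cxcl5 and Cxcl16.

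Ccl2 was at 52.4, 47.3 and 47.3 TPM in controls and 60.6, 66.6 and 63.9 TPM with Treg. All co-culture libraries exceeded all controls, and the nearest pair was control 1 and Treg co-culture 1, which share batch 1. On the log2 scale the difference was 0.37 (SE 0.05, limma adjusted p = 0.000414), with within-batch differences of 0.21, 0.48 and 0.43. Ccl7 was about 2 times as abundant as Ccl2 throughout: 108, 90.7 and 99.6 TPM in controls and 119, 127 and 126 TPM with Treg. The groups again did not overlap, and the log2 fold change was 0.32 (SE 0.06, adjusted p = 0.00191). The ratio of Ccl7 to Ccl2 was 1.92 to 2.11 in controls and 1.91 to 1.97 after co-culture, so the values of both moved in near proportion.

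Ccl8 was at 15.9, 8.41 and 13.2 TPM in controls and 5.96, 6.48 and 6.28 TPM with Treg. The controls scattered widely, control 2 being the lowest, while the co-culture libraries lay within 1 TPM of each other. Its mean after co-culture was 0.499 of the control mean, and the log2 fold change, -0.86 (SE 0.18, limma adjusted p = 0.00352), was the lowest of the 16 members, with 126 of 12405 tested genes below it. Within batches the differences were -1.28, -0.33 and -0.97. Macrophages also make Ccl8. Of the 12 macrophage markers 9 were tested and 1 was lower, against 18.0% of all genes tested. That 1 was the lysozyme gene Lyz2 (65.9 ± 4.18 to 44.7 ± 6.26 TPM). The list summed to 97.9 to 105 TPM in controls and 71.3 to 83.2 TPM with Treg, and Lyz2 made up most of that sum in every library. Per unit of Lyz2, Ccl8 was 0.119 to 0.246 in controls and 0.125 to 0.158 after co-culture, values that overlap. That overlap was seen with the 1 marker called lower. Among the others, Cd68 (log2 fold change -0.21, limma adjusted p = 0.307) and Csf1r (0.19, adjusted p = 0.264), named for their mean TPM, were not called. The median log2 fold change of the 9 macrophage markers tested was -0.28, against 0.00 for all genes tested. Ratios of Ccl8 to the other macrophage markers were not computed. The part of macrophages in the result was not tested.

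Ccl6 and Ccl9, rodent chemokines of myeloid cells, were not called. Ccl6 was 6.61 ± 0.0870 TPM in controls and 7.41 ± 1.12 TPM with Treg (log2 fold change 0.14, limma adjusted p = 0.358), where Treg co-culture 3 was the highest at 8.66 TPM. Ccl9 was 4.35 ± 0.957 and 5.21 ± 0.469 TPM (0.23, adjusted p = 0.239). Ccl11, the eosinophil attractant eotaxin, was 2.95 to 4.63 TPM in controls and 1.42, 4.29 and 2.99 TPM with Treg, with Treg co-culture 1 the lowest (-0.33, adjusted p = 0.344). Without that library the log2 fold change of Ccl11 was -0.02.

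The members of chromosome 11 stand in the RefSeq order Cxcl16, Ccl2, Ccl7, Ccl11, Ccl12, Ccl8, Ccl1, Ccl5, Ccl9, Ccl6, Ccl3 and Ccl4. Position in this series did not go with 1 direction: the neighbours Ccl2 and Ccl7 rose, Ccl11 was not called, Ccl12 had a mean under 1 TPM, Ccl8 fell and Ccl1 was listed at 0 in every library. The ratio of Ccl2 to Ccl8 was 3.29 to 5.63 in controls and 10.2 to 10.3 after co-culture.

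**Figure D3:**
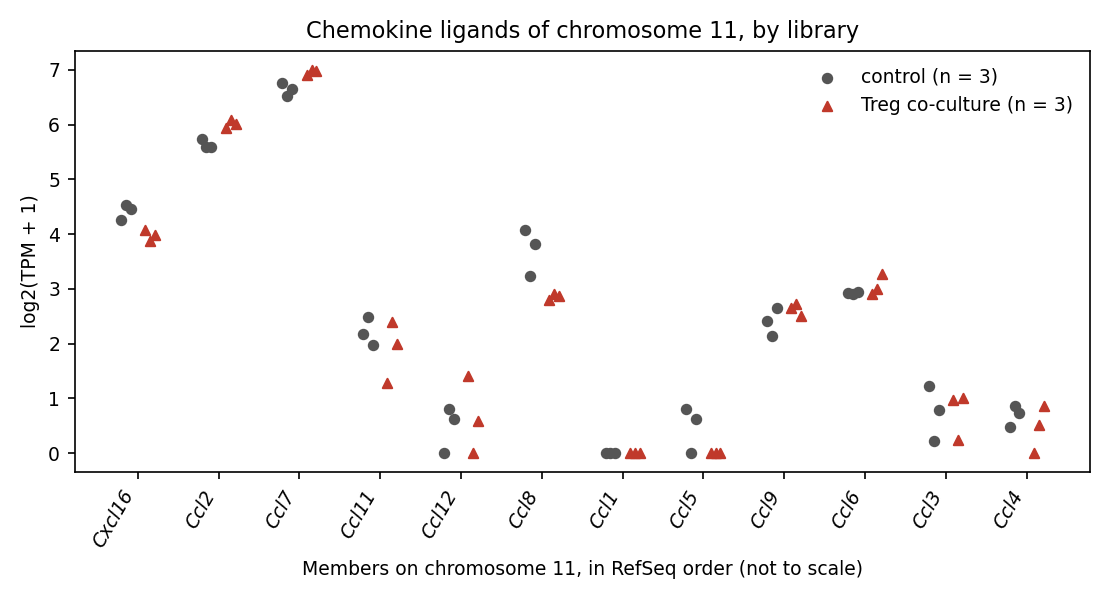
The 12 chemokine ligands of chromosome 11 in RefSeq order (not to scale), as log2(TPM + 1) with 1 point per library (circles control, triangles Treg co-culture). Co-culture points lie above the controls for Ccl2 and Ccl7 and below them for Cxcl16 and Ccl8, and Ccl1 is at 0 in all 6 libraries.

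Neutrophil-attracting CXC ligands, which act through CXCR2, were low in all libraries and 2 of 5 were tested. Promoter stretches of 3 of them, chosen after the values were seen, are shown because they share the same NF-kB match yet differ in transcript level. Each runs from 110 to 61 bases before the start on the plus strand (RefSeq, GRCm38.p6): chr5:90891135-90891184 for Cxcl1, chr5:90903789-90903838 for Cxcl2 and chr5:90785991-90786040 for Cxcl3, with the NF-kB match in capitals.
Cxcl1: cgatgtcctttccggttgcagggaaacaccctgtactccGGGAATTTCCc
Cxcl2: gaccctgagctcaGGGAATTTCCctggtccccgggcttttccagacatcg
Cxcl3: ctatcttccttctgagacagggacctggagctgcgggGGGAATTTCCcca
The 10 capital letters are identical in the 3 stretches and begin 71, 97 and 73 bases before the start. Cxcl1 had a mean of 3.74 TPM in controls, Cxcl3 was at most 0.283 TPM in any library, and Cxcl2 was listed at 0 in all but Treg co-culture 1 (0.117 TPM).

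Cxcl1 was at 3.29, 4.92 and 3.01 TPM in controls and 1.73, 2.11 and 2.24 TPM with Treg. The groups did not overlap, and control 2 was the highest. On the log2 scale it fell by 0.63 (SE 0.17, limma adjusted p = 0.0134), and the ratio of mean TPM was 0.541; adding 1 before the log understates the change of so low a gene. Without control 2 the call was lost (-0.46, adjusted p = 0.0502), and over 18 alternative fits the adjusted p ran from 0.00609 to 0.1003. Cxcl5 was 1.30 to 1.65 TPM in controls and 0.306, 1.22 and 1.53 TPM with Treg, with Treg co-culture 1 apart from the other libraries, and was not called (-0.32, adjusted p = 0.328).

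Of the interferon-induced ligands that call in activated T cells through CXCR3, Cxcl9 and Cxcl10 were in the table and Cxcl10 was tested. A stretch of 165 promoter bases ending 61 bases before the start, at chr5:92348950-92349114 on the minus strand (RefSeq, GRCm38.p6), is shown because it holds motifs of both inducing pathways.
Cxcl10: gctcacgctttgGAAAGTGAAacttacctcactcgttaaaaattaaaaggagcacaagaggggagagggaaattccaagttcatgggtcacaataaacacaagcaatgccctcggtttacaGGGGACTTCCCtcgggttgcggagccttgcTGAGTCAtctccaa
Capitals mark, in order, an IRF-type match (213 bases before the start), 2 NF-kB matches that overlap in all but 1 letter (104 and 103 bases before) and an AP-1 match (74 bases before). Cxcl10 was at 3.57, 2.68 and 2.35 TPM in controls and 0.921, 3.14 and 1.22 TPM with Treg. Treg co-culture 2 lay within the control range and the other co-culture libraries below it. Its log2 fold change of -0.56 (SE 0.26) missed the threshold (limma adjusted p = 0.122), and the differences within batches were -1.25, 0.17 and -0.60. Without Treg co-culture 2 it was called lower (-0.89, adjusted p = 0.00619), and without Treg co-culture 1 it was -0.34 (adjusted p = 0.345); over 18 alternative fits the adjusted p ran from 0.00619 to 0.517. Cxcl9 was at most 0.496 TPM in any library.

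Cxcl16 and Cx3cl1 are made as transmembrane proteins that tether cells and are shed by the metalloproteases ADAM10 and ADAM17. Cxcl16, the ligand of CXCR6, was at 18.2, 22.1 and 21.0 TPM in controls and 15.9, 13.7 and 14.9 TPM with Treg. The groups did not overlap, and the closest libraries were those of batch 1. It fell by 0.44 on the log2 scale (SE 0.09, limma adjusted p = 0.00270). Cxcl16 is also a macrophage gene. Per unit of Lyz2 it was 0.282 to 0.336 in controls and 0.265 to 0.374 after co-culture, which overlap. Lyz2 was the only 1 of the 9 macrophage markers tested that was called. Cd68 (log2 fold change -0.21, limma adjusted p = 0.307) and Csf1r (0.19, adjusted p = 0.264) were not. The median log2 fold change of those 9 markers was -0.28, against 0.00 for all genes tested. Ratios of Cxcl16 to macrophage markers other than Lyz2 were not computed. The part of macrophages in the Cxcl16 result was not tested. Cx3cl1, fractalkine, was 9.01, 9.40 and 10.7 TPM in controls and 11.7, 10.3 and 10.6 TPM with Treg, overlapping values without a call (0.14, SE 0.09, adjusted p = 0.239).

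**Figure D4:**
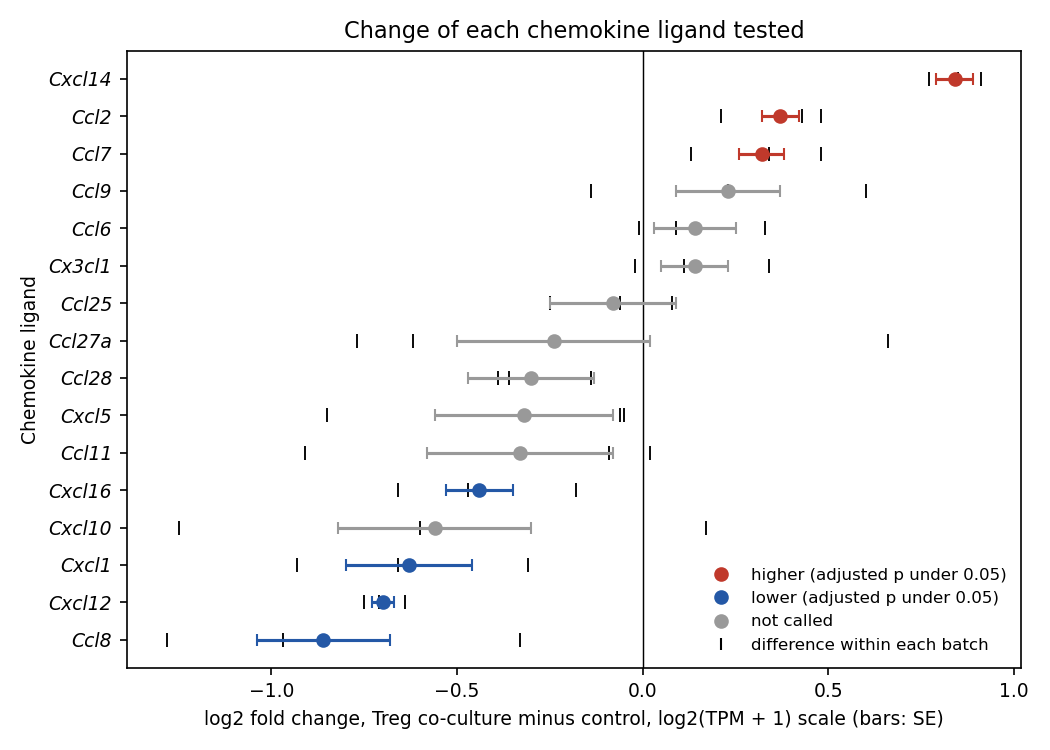
Log2 fold change (Treg co-culture minus control, log2(TPM + 1) scale) of the 16 chemokine ligands tested, with bars of 1 SE, colours for the limma call and ticks for the difference within each of the 3 batches. For the 7 called members, from Ccl8 at -0.86 to Cxcl14 at 0.84, all 3 batch ticks lie on the same side of 0. This follows from their groups not overlapping and is no further support. The ticks of Ccl28 and Cxcl5, which were not called, also lie on 1 side.

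The remaining 22 members had a mean under 1 TPM, the highest being 0.731 TPM, and were not tested. Per library, 21 to 24 of the 38 members were at or under 1 TPM. Of the 22, 4 were listed at 0 in all libraries: Ccl1, Ccl22, Ccl19 and Ccl26. Ccl1 and Ccl22 are ligands of CCR8 and CCR4, chemokine receptors found on T cells. Ccl19 guides cells into lymph nodes, and Ccl26 is an eosinophil attractant. The other 18 were above 0 in at least 1 library, and 3 of them passed 1 TPM somewhere: Ccl12 in Treg co-culture 1 (1.66 TPM), Ccl3 in control 1 (1.33 TPM) and Ccl27b in control 2 (1.31 TPM). Ccl17, a CCR4 ligand for Th2 and regulatory T cells, was at 0, 0.261 and 0.559 TPM in controls and 0.637, 0.560 and 0.781 TPM with Treg. Ccl21b, a lymphoid tissue chemokine, was at 0.299, 0.334 and 0.371 TPM in controls and 0.0670, 0.280 and 0 TPM with Treg. Those were the 2 of the 22 low members whose groups did not overlap. Among all genes tested, co-culture lay wholly above in 25.3% and wholly below in 24.0%. The share among all genes under 1 TPM was not computed. Ccl5, a T cell and monocyte attractant named after its values were seen, was at 0.739, 0 and 0.541 TPM in controls and listed at 0 in each co-culture library. Such values cannot be told from sampling noise, as depth is unknown. The Ccl21 genes and the Ccl27 genes are near-identical copies, so their separate values are uncertain.

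Receptors for these ligands were scarce in the libraries. Of 18 signalling chemokine receptors, 1 was tested: Cxcr4, the receptor of CXCL12, at 1.45, 0.520 and 1.75 TPM in controls and 2.03, 0.956 and 1.55 TPM with Treg, overlapping values (log2 fold change 0.19, limma adjusted p = 0.589). The 18 together summed to 2.30 to 4.12 TPM in controls and 2.98 to 3.79 TPM with Treg, and 5 were at 0 throughout (Ccr4, Ccr6, Ccr8, Cxcr1 and Cxcr3). Atypical receptors bind chemokines without the usual signalling, and 3 of 7 such or related genes were tested. Ackr3, which scavenges CXCL12, was at 27.9, 28.8 and 31.3 TPM in controls and 23.9, 23.1 and 22.7 TPM with Treg. It fell as well (-0.32, SE 0.06, adjusted p = 0.00185), and the ratio of Cxcl12 to Ackr3 was 30.1 to 35.0 in controls and 24.3 to 26.5 after co-culture. Cmklr1, the chemerin receptor (-0.09, adjusted p = 0.477), and Ackr4, a scavenger of CCL19 and CCL21 (-0.43, adjusted p = 0.112), were not called, though without control 2 Ackr4 was called too, making 2 lower. Pf4, a platelet and macrophage CXC ligand whose symbol lies outside the family pattern, was 0.999 ± 0.331 TPM in controls and 1.09 ± 0.811 TPM with Treg (-0.01, adjusted p = 0.984).

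Proteases that trim or shed chemokines were lower in 5 of 8 tested cases and the other 3 were not called (list median -0.18, against 0.00 for all genes tested, of which 18.0% were called lower). They were the gelatinase Mmp2 (-0.57), the aminopeptidase Anpep (-0.81), Adam10 (-0.14), the macrophage elastase Mmp12 (-0.46) and Dpp4 (-0.22), which cuts CXCL12. The shedding enzyme Adam17 (-0.07, limma adjusted p = 0.208) was not called. Dpp4 and Adam17 were named after their values were seen.

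Among cytokines that induce chemokines, 2 of 15 were tested and moved apart. Il6 went from 12.2 ± 1.29 to 19.3 ± 1.51 TPM (log2 fold change 0.62, limma adjusted p = 0.000377) and Il33, an alarmin, from 17.8 ± 1.36 to 7.17 ± 0.723 TPM (-1.20, adjusted p = 5.12e-06). Tnf and Il1b, named after their values were seen, were at most 0.537 and 0.198 TPM in any library, and Ifng, Ifnb1, Il4 and Il17a were among the 8 listed at 0 throughout. Receptors of these cytokines were lower in 8 of 15 tested cases and higher in 1 (list median -0.16), where 18.0% of all genes tested were lower and 19.8% higher. The lower ones included Il6st (-0.51), the interferon receptor chain Ifnar2 (-0.34), Il1r1 (-0.27) and Il1rap (-0.20). The higher one, named after its value was seen, was the interleukin 13 receptor chain Il13ra1 (0.23).

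Of 12 NF-kB subunits and feedback genes, 2 rose: Tnfaip3, which shuts the pathway off (0.48, limma adjusted p = 0.00642), and the subunit Nfkb2 (0.21, adjusted p = 0.00704). Against 19.8% of all genes tested, 2 of 12 is no more than the background. With batch as a block, 1 gene of the list was called higher without batch 1 and 0 without batch 2. The other 10 were not called and the list median was 0.01; at an unadjusted p under 0.05 the regulators Nfkbiz (-0.19) and Tnip1 (-0.13) were lower. Without control 2, and likewise without control 3, 1 gene of this list was called lower (Nfkbiz and Tnip1, in that order). Of 10 interferon-responsive transcription factors tested, 5 fell, against 18.0% of all genes tested, and 5 were not called (list median -0.20). Those that fell included Stat2 (-0.76), Irf7 (-1.20) and Irf9 (-0.62). Against these, the interferon-induced Cxcl10 missed the threshold at -0.56. Whether these lists and the chemokine changes are linked was not tested.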

How the data were processed

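Values are TPM as the authors deposited them, for 6 libraries, with genes given by NCBI Gene number. Trizol extraction and bead capture of mRNA are stated in the labels' protocols. GRCm38, mm10 and GRCm39 appear as builds in the submitters' processing notes, without their roles; the sources used here do not give the aligner, the counter or the gene models. Of 22186 gene numbers, 21992 (99.1%) matched a symbol in the RefSeq table of GRCm38.p6, used for names and gene order. Promoters are RefSeq's, and 28 of 38 members had one.

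Genes averaging 1 TPM or more over all libraries were tested on log2(TPM + 1) with limma 3.58.1 (R 4.3.3, eBayes with trend), Treg co-culture against control, Benjamini-Hochberg over all 12405 genes. SE are limma's. The fit was checked on simulated data, with changes planted only in genes above about 10 TPM. It recovered 98% of log2 changes of 1 and 54% of those of 0.3, with 8 false calls. Lower genes, among them 10 of the 16 members tested, were not covered, so a member not called may still have changed. Tables and plots used Python 3.11.15, pandas 2.3.3 and matplotlib 3.10.9. TPM keep no depth, so no counting interval is given.

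The labels give same-numbered libraries a shared batch, and the fit with that block was an alternative. After subtracting group means, libraries sharing a number correlated at 0.0115, -0.0146 and 0.00402. Every member of at least 1 TPM is named, lower ones only if above 1 TPM in a library or without overlap between groups, of pathway lists up to 4 genes by adjusted p (every receptor tested) and of marker lists up to 3 by mean TPM. Exceptions, named after their values were seen, are Ccl1, Ccl5, Ccl19, Ccl22, Ccl26, Cxcl2, Cxcl3 and Cxcl9, Cd44, Tnf, Il1b, Dpp4, Adam17 and Il13ra1, and genes listed at 0. Members and lists were chosen with earlier results of these data known. Also tried were a pseudocount of 0.1 or 0.01, a filter of 5 TPM or none, median-of-ratios and quantile scaling, robust eBayes or no trend, TPM rescaled after removing mitochondrial and ribosomal protein genes, thresholds of 0.01 and 0.1, and libraries or batches left out. They were applied to the other gene lists after the data were seen.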

Additional observations from a re-analysis of the deposited data

How the results depend on the processing

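The counts of 3 higher and 4 lower chemokine ligands were the same with the replicate block (3 and 4), and the block changed no call among the 16 members. The higher count was 3 under every alternative run. The lower count ranged from 3 to 5 when 1 library was left out, was 3 with a filter of 5 TPM, where 10 members were tested, and 3 at a threshold of 0.01. Cxcl12 ran from -0.73 to -0.68, Cxcl14 from 0.81 to 0.90, Ccl2 from 0.32 to 0.46, Ccl7 from 0.23 to 0.41, Ccl8 from -1.12 to -0.65 and Cxcl16 from -0.56 to -0.33, and these 6 kept their calls in all 19 fits. Cxcl1 lost its call without control 2 and, with the block, without batch 2 (-0.48); Cxcl10 was also called in the latter fit (-0.92, adjusted p = 0.0215). Of the members not called, Ccl25 ran from -0.20 to 0.12 and Ccl27a from -0.47 to 0.02 when 1 library was left out; Ccl25 changed sign without Treg co-culture 2 (0.12) and with the block without batch 2 (0.01), and Ccl27a without Treg co-culture 1 (0.02) and with the block without batch 1 (0.02). The cause of these shifts was not tested. With the block, the NF-kB list had 1 higher gene without batch 1 and 0 without batch 2, each with 1 lower gene, and without batch 2 proteases had 3 lower, cytokine receptors 0 higher and interferon factors 1 higher. Without a filter, 2 atypical receptors were lower. Depth is unknown, so precision at low TPM can be read from the replicates alone.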
